A study of Mus musculus with 6 samples.

Results

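Neuronal cytoskeleton and Elavl genes were followed in cortical cells of mouse embryos exposed to phenobarbital, a barbiturate that enhances currents through GABA-A receptors. The set held 10 genes, Tubb3, Dcx, Stmn2, Elavl3, Elavl4, Gap43, Map2, Mapt, Nefl and Nefm, of the 20145 gene symbols on the array. Its members were taken as every non-control probe whose accession mapped to one of these symbols, which gave 16 of the 55681 probes. Of these genes, 6 had 1 probe and 4 had several. All 16 probes were well above background on every array, and all passed the filter on dim probes, which left 34672 probes in all.

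The phenobarbital group held 3 arrays, from embryos of C57BL/6N dams given 80 mg/kg phenobarbital, in saline at 8 mg/mL, by intraperitoneal injection. The control group held 3 arrays, from embryos of C57BL/6N dams given saline on the same schedule. In both groups the injections came in pairs 6 h apart on embryonic days 10 to 11. The cortex was taken at embryonic day 12 per the protocol, or E12.5 per the sample labels, and its cells were dissociated and plated on a coated dish. RNA was isolated 4 h after plating, and 0.2 µg of it was labelled with Cy3 for 1-colour Agilent arrays. The dam was injected, not the embryo, and the labels call the plated cells neural progenitor cells and give no sort. No label ties a replicate to its own litter or culture. The p-values therefore reflect the spread of these 6 samples alone, and that spread may be technical.

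Newborn cortical neurons build a microtubule skeleton that carries their migration and their first axons. Tubb3 is a neuronal beta-tubulin of those microtubules, Dcx, Map2 and Mapt bind and stabilise them, and Stmn2 binds free tubulin and promotes their turnover. Gap43 lies at the membrane of the growth cone, Nefl and Nefm are subunits of the neurofilaments of axons, and Elavl3 and Elavl4 bind AU-rich elements in RNA and are made in neurons from the time they leave the cell cycle. All of them are used as markers of neurons, and radial glial progenitors hold little of most of them.

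The start regions of the genes show which known regulatory letters stand beside them. RefSeq promoter windows (build GRCm38.p6), from 250 bases before to 50 bases after an annotated start, were at hand for 5 members: Tubb3, Dcx, Map2, Elavl3 and Elavl4. Windows of 3 members are shown because they hold the E-box letters CAGCTG or CAGATG, which proneural basic helix-loop-helix factors can bind, or CAGCACC and GGACAGC, the ends of the element bound by the repressor REST. Capitals mark these letters on either strand, each window is written 5′ to 3′ on the gene's own strand, and the letters of the 2 E-boxes do not overlap. The Elavl3 window is chr9:22051974-22052273, minus strand. The Elavl4 window is chr4:110287478-110287777, minus strand, 1 of 4 annotated for the gene. The Tubb3 window is chr8:123411303-123411602, plus strand.
Elavl3: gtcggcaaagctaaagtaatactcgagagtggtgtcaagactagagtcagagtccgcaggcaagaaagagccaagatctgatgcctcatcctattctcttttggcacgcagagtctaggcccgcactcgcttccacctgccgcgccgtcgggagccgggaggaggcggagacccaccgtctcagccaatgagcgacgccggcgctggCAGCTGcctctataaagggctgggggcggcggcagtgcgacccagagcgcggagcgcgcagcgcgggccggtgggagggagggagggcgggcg
Elavl4: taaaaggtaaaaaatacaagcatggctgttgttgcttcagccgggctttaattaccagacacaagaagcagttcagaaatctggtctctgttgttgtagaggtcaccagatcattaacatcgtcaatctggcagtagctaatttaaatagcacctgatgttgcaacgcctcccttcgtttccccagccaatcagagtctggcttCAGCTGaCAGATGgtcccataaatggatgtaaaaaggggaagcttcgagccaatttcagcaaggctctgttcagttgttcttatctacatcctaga
Tubb3: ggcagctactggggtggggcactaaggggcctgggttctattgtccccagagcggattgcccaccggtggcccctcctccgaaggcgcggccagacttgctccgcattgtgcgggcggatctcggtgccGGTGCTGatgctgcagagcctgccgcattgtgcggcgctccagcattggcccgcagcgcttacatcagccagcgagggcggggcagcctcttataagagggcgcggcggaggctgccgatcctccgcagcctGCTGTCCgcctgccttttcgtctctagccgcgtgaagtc

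In the Elavl3 window CAGCTG began 43 bases before the start, and in the Elavl4 window CAGCTG began 46 and CAGATG 39 bases before it. In the Tubb3 window the reverse complement of CAGCACC began 121 bases before the start and that of GGACAGC at base 11 after it. These words thus lay far apart, on opposite sides of the start, and the whole REST element was not searched for. Among all 32851 windows of the same length, 16.3% held CAGCTG, 17.2% CAGATG, 7.14% CAGCACC and 6.56% GGACAGC on either strand. The general E-box CANNTG, which contains both E-box words, was in 72.3% of windows, and TATAAA was in 13.6%. CANNTG was in 4 of the 9 member windows, all of Elavl3 or Elavl4, and in no window of Tubb3, Map2 or Dcx. The Map2 window held GGACAGC, and the Elavl3 and Dcx windows held TATAAA. These are matches of letters, and the arrays measured no binding at any of them.

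The labelled cell type was checked by 12 markers of cortical progenitors, among them Pax6 and Sox2. All 12 were above background, 0 fell and 1, Emx2, rose. Their mean level was 2.91 to 3.11 on phenobarbital arrays and 2.76 to 3.05 on control arrays. Here and throughout, a level is log2 of the probe's signal relative to the array's 75th percentile, so it can be compared between arrays for 1 probe but not between probes. All 3 phenobarbital arrays and control 1 lay on slide 1, control 2 on slide 2 and control 3 on slide 3. The 75th percentile itself was 1803 to 1862 on phenobarbital arrays and 1116 to 1291 on control arrays, before this scaling. Genes of other cell types also differed between the groups. All 6 choroid plexus markers rose, with mean levels of -0.89 to -0.04 in phenobarbital against -3.68 to -2.38 in control. Of 6 erythroid markers 5 fell, with mean levels of 2.06 to 2.50 in phenobarbital against 2.85 to 4.15 in control. Of 7 mural and meningeal markers 6 fell, with mean levels of 0.70 to 1.01 in phenobarbital against 1.55 to 1.60 in control. Of 6 endothelial markers 2 fell, with a median log2 fold change of -0.60, and of 6 microglia markers 3 fell and 1 rose. Cajal-Retzius markers, of early neurons at the cortical surface, had a median of 0.40, and 2 of 6 rose and 0 fell. These 2 were Reln, by 1.27 (limma adjusted p = 0.0293), and Calb2, by 1.15 (0.0428). Both were dim probes, with mean levels of -4.75 and -4.62 over the 6 arrays, the lowest of these 6 markers. Trp73 and Lhx5 had 0.36 and 0.44 without passing (limma adjusted p = 0.112 and 0.372). Ebf3 and Lhx1 were negative, at -0.49 and -0.19 (limma adjusted p = 0.078 and 0.478). The part of these cells in the values of the neuronal genes was not tested.

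After scaling, Stmn2, Elavl3, Elavl4 and Dcx fell in phenobarbital cells, to between 0.613 and 0.675 times their control level by their brightest probes. No member rose. Before scaling, the signals of these 4 probes overlapped between the groups, so the falls are relative to the array's other spots. Elavl4 had unscaled signals of 12233, 11408 and 10440 on phenobarbital arrays and 12748, 11602 and 11898 on control arrays. For Gap43 every unscaled phenobarbital signal was above every control signal. In scaled levels, Tubb3, Gap43 and Nefl were lower on every phenobarbital array than on any control array without passing the test. Map2, Mapt and Nefm had groups that overlapped. By limma with Benjamini-Hochberg adjustment over all kept probes and a threshold of 0.05, 4 of the 16 member probes fell (25%), beside 9.24% of all probes, and 0 rose, beside 6.96%. At an unadjusted p under 0.05 stood 8 member probes and 12216 of all probes. Counting the brightest probe of each gene, 4 of 10 members fell (40%), beside 9.37% of 15180 gene symbols, and 0 rose, beside 7.02%. Its log2 fold change was negative for 14 of 16 member probes, beside 65.7% of all probes, and for 9 of 10 brightest probes, beside 68.7%. Levels lay lower in phenobarbital with no overlap of the groups for 8 of 16 member probes (50%), beside 30.6% of all probes, and higher for 0, beside 13.4%. The median log2 fold change, phenobarbital minus control, was -0.47 over the members' brightest probes and -0.15 over all probes. In RNA of whole cultures, fewer neurons and less of these RNAs in each neuron cannot be told apart.

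**Figure D1:**
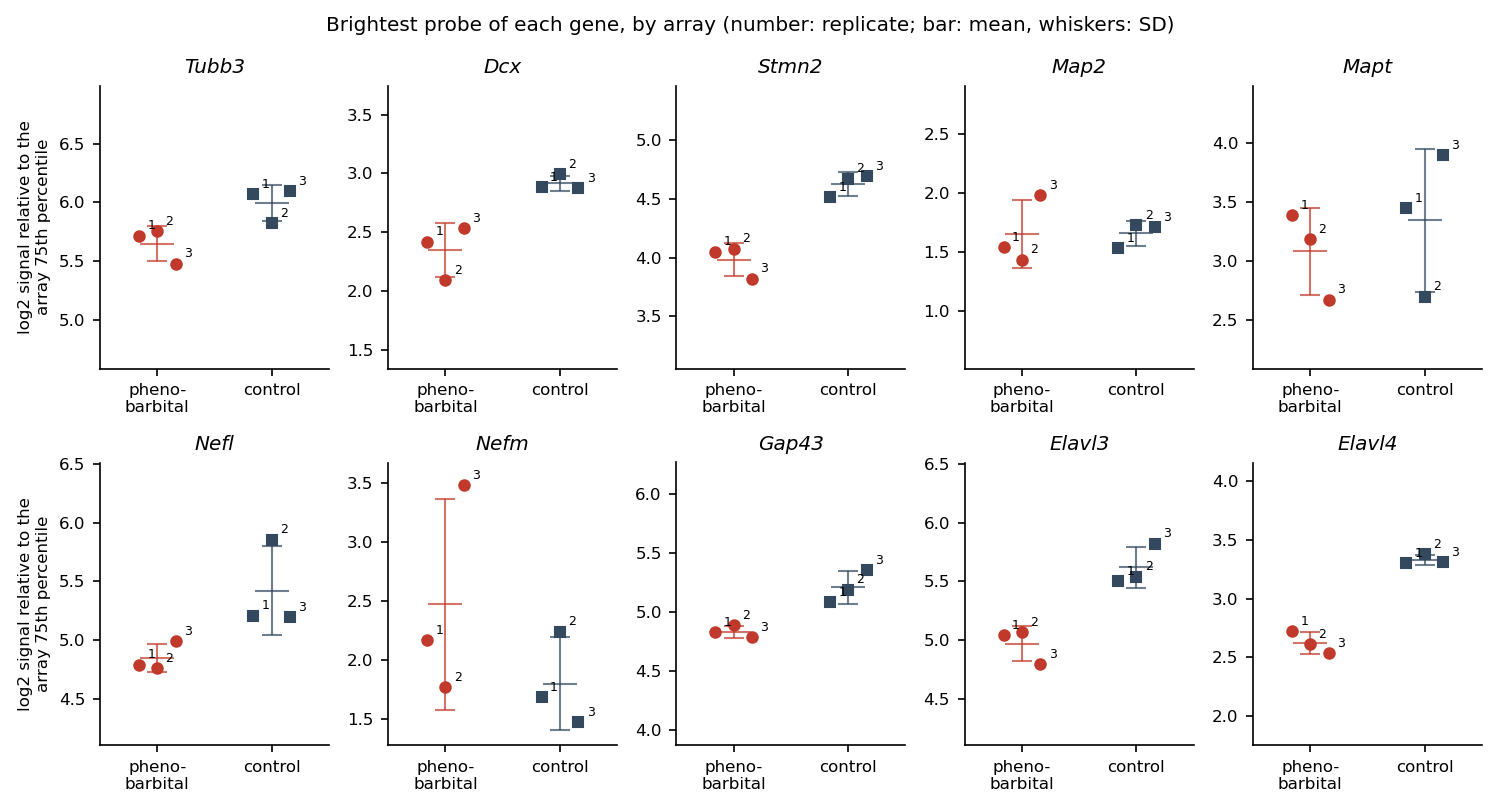
Level of each member's brightest probe on every array, as log2 of the signal relative to the array's 75th percentile, with 1 panel per gene, 3 phenobarbital points on the left and 3 control points on the right, a bar at each group mean and whiskers for the SD. The phenobarbital points sit below every control point for Tubb3, Dcx, Stmn2, Elavl3, Elavl4, Gap43 and Nefl, and the groups overlap for Map2, Mapt and Nefm.

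The number of members that passed changed when single arrays were left out. It was 1 without phenobarbital 1, 0 without phenobarbital 2, 1 without phenobarbital 3, 0 without control 1, 3 without control 2 and 1 without control 3. With the slide as a block, where only control 1 stands beside the phenobarbital arrays, no member probe passed, and the median over the members was -0.39. Over all probes 5617 (16.2%) changed, of which 43% rose. That share was 25.6% with normexp background correction, 62.7% with median scaling, 59.1% with quantile normalization and 66.6% with the 75th percentile over detected probes alone. The median over the members was negative under each of these, from -0.45 to -0.23.

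Stmn2 and Dcx, which act on microtubules from opposite sides, both fell. Stmn2 stood at 4.05, 4.08 and 3.82 on phenobarbital arrays 1 to 3 and at 4.51, 4.67 and 4.69 on control arrays 1 to 3. Every phenobarbital array was lower than every control array. The difference on the log2 scale was -0.64 ± 0.12 (standard error, SE; 3 arrays per group), with a limma adjusted p of 0.0226. The phenobarbital mean minus control 1 alone, all on slide 1, was -0.53, and with quantile normalization the log2 fold change was -0.46 (adjusted p = 0.0387).

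Dcx, doublecortin, is carried by migrating neurons and is mutated in human X-linked lissencephaly. Its brightest probe stood at 2.42, 2.09 and 2.54 on phenobarbital arrays and at 2.88, 2.99 and 2.88 on control arrays. The control arrays lay close together, and all phenobarbital arrays were below them. The log2 fold change was -0.57 ± 0.14 (SE), with a limma adjusted p of 0.0436, near the threshold, and with quantile normalization it was -0.42 (adjusted p = 0.148). Both other Dcx probes gave smaller differences and groups that overlapped. The first stood at -1.73, -2.41 and -1.78 on phenobarbital arrays and -1.78, -1.67 and -1.72 on control arrays (log2 fold change -0.25 ± 0.20, limma adjusted p = 0.399). The second stood at -2.38, -2.81 and -2.15 on phenobarbital arrays and -2.23, -2.02 and -2.12 on control arrays (log2 fold change -0.32 ± 0.18, limma adjusted p = 0.254). Phenobarbital 2 was the lowest array on all 3 Dcx probes. The fold change of the brightest probe was lower than those of the other probes by 0.32 and 0.24 on the log2 scale, each with an exact two-sided permutation p of 0.1, the smallest that 3 arrays against 3 can give.

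Tubb3 is the class III beta-tubulin by which young neurons are most often stained. It stood at 5.72, 5.76 and 5.48 on phenobarbital arrays and at 6.07, 5.82 and 6.10 on control arrays. The gap between the groups was narrow, since phenobarbital 2 and control 2 almost met. Its log2 fold change was -0.35 ± 0.13 (SE), with a 95% interval of -0.67 to -0.03 and a limma adjusted p of 0.120. With quantile normalization it was -0.11.

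Map2, a dendritic microtubule-binding protein, showed no difference beyond the spread of the arrays. Its brighter probe stood at 1.54, 1.43 and 1.98 on phenobarbital arrays and at 1.53, 1.73 and 1.71 on control arrays, with a 95% interval of -0.41 to 0.40 for the log2 fold change (limma adjusted p = 0.990). The other probe stood at 1.09, 0.77 and 1.21 on phenobarbital arrays and at 0.995, 0.97 and 1.05 on control arrays, where the limma adjusted p was 0.938 and the interval -0.31 to 0.35. On both probes phenobarbital 3 was highest and phenobarbital 2 lowest of all arrays. These intervals still include falls as large as that of Tubb3 on the brighter probe.

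Mapt, which encodes tau, the microtubule-binding protein of axons, varied more among arrays of 1 group than between the groups. Its brightest probe stood at 3.39, 3.18 and 2.67 on phenobarbital arrays and at 3.45, 2.70 and 3.90 on control arrays. The difference on the log2 scale was -0.27 ± 0.34 (SE), and the limma adjusted p was 0.605, with a 95% interval of -1.08 to 0.54. The other Mapt probes gave -0.21 ± 0.27 and -0.35 ± 0.33 (limma adjusted p = 0.618 and 0.482). On all 3 probes phenobarbital 3 and control 2 were the lowest arrays of their groups and control 3 was the highest of all. Probes of 1 gene share the RNA and the array, so they do not add replicates.

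Gap43, a growth cone phosphoprotein of growing axons, stood at 4.83, 4.89 and 4.78 on phenobarbital arrays and at 5.08, 5.19 and 5.35 on control arrays. The phenobarbital arrays were close together and all lower. The log2 fold change was -0.38 ± 0.11 (SE), with a 95% interval of -0.65 to -0.10 and a limma adjusted p of 0.0686. It was -0.13 with quantile normalization and -0.25 within slide 1.

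The neurofilament subunits differed from each other in their pattern. Nefl, the light subunit, stood at 4.79, 4.77 and 4.99 on phenobarbital arrays and at 5.21, 5.86 and 5.20 on control arrays. All phenobarbital arrays were lower, while control 2 stood well above the other controls. Its log2 fold change was -0.57 ± 0.20 (SE), the limma adjusted p was 0.0993, and the 95% interval ran from -1.06 to -0.08; without control 2 the difference was -0.35.

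Nefm, the medium subunit, stood at 2.17, 1.77 and 3.48 on phenobarbital arrays and at 1.68, 2.24 and 1.47 on control arrays. Phenobarbital 3 was far above every other array, and the groups overlapped. The difference on the log2 scale was 0.68 ± 0.46 (SE), and its 95% interval ran to 1.77 at the top and -0.42 at the bottom (limma adjusted p = 0.329), and without phenobarbital 3 it was 0.17. The probe is printed as 10 spots on each array, and the SD of these spots within an array was 0.02 to 0.05, so the height of phenobarbital 3 was not that of a single spot.

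The RNA-binding pair moved alike, and Elavl4 had the lowest adjusted p of the set. Elavl4, also called HuD, stood at 2.72, 2.62 and 2.53 on phenobarbital arrays by its brighter probe, and at 3.30, 3.38 and 3.31 on control arrays. The arrays of each group lay within a narrow band, with a clear gap between the bands. The log2 fold change was -0.71 ± 0.10 (SE), which is 0.613 times the control level, with a 95% interval of -0.95 to -0.46 and a limma adjusted p of 0.0114. With quantile normalization it was -0.54 (adjusted p = 0.0237), and within slide 1 it was -0.68. The adjusted p was 0.0540 without phenobarbital 2 and 0.0524 without control 1, and 0.111 with the slide as a block.

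The other Elavl4 probe stood at 1.03, 0.82 and 0.71 on phenobarbital arrays and at 1.19, 1.23 and 1.16 on control arrays. The groups did not overlap, but the difference was smaller, with a log2 fold change of -0.34 ± 0.12 (SE; limma adjusted p = 0.0958). The fold change of the brighter probe was lower than that of the other by 0.36 on the log2 scale (exact two-sided permutation p = 0.1, the smallest possible). Elavl4 has several annotated starts and transcripts, and the probes' own sequences were not used here.

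Elavl3, also called HuC, stood at 5.04, 5.07 and 4.80 on phenobarbital arrays and at 5.50, 5.54 and 5.82 on control arrays. Every phenobarbital array was lower than every control array, with phenobarbital 3 lowest and control 3 highest. Its log2 fold change was -0.65 ± 0.14 (SE), which is 0.637 times the control level, with a limma adjusted p of 0.0306. It was -0.53 within slide 1, and with quantile normalization it was -0.41 (adjusted p = 0.0665).

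**Figure D2:**
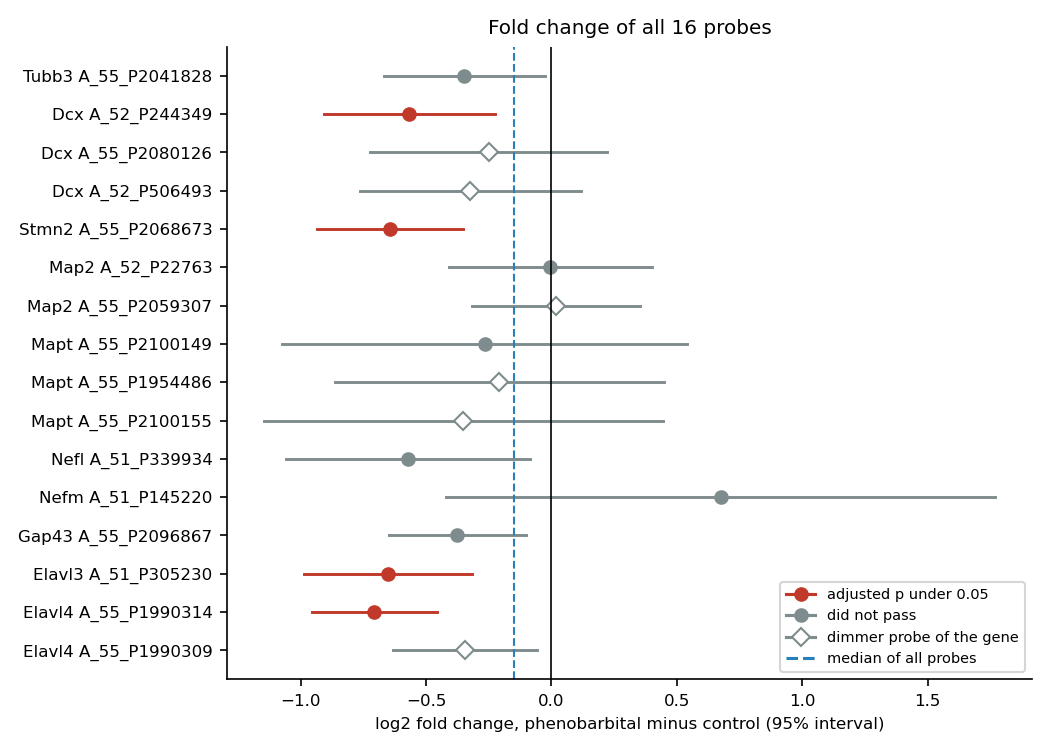
Log2 fold change, phenobarbital minus control, of all 16 member probes, with points at the estimate, bars for the 95% interval and a line at the median of all 34672 probes. Red marks the 4 probes that fell, of Elavl4, Elavl3, Stmn2 and Dcx, open diamonds mark the dimmer probes of a gene, and the interval of Nefm is the widest.

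Most members had a bright probe, and bright probes as a whole were lower in phenobarbital. Sorted into 10 bins of equal size by mean signal, all kept probes had a median log2 fold change of -0.05 in bin 1, the dimmest, -0.19 in bin 9 and -0.31 in bin 10, the brightest. In bin 10, 23.6% of probes fell and 2.1% rose. Of the member probes, 5 lay in bin 10 (Tubb3, Stmn2, Elavl3, Gap43 and Nefl) and 4 in bin 9 (1 each of Dcx and Elavl4 and 2 of Mapt). Among 1939 gene symbols whose brightest probe was in bin 10, 333 (17.2%) fell, and 2 of the 5 members there fell, Stmn2 and Elavl3. In bin 9, 8.77% of probes fell, and the probes of Dcx and Elavl4 that fell lay there.

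The trend with signal depended on the scaling. With quantile normalization, which gives all arrays the same spread of signals, the median of bin 10 was -0.02 and 2.88% of its probes fell. Under that scaling Elavl4 and Stmn2 passed the test, the member median was -0.23, and Tubb3 and Gap43 moved to -0.11 and -0.13. Which scaling fits the true RNA amounts of these cells was not tested.

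**Figure D3:**
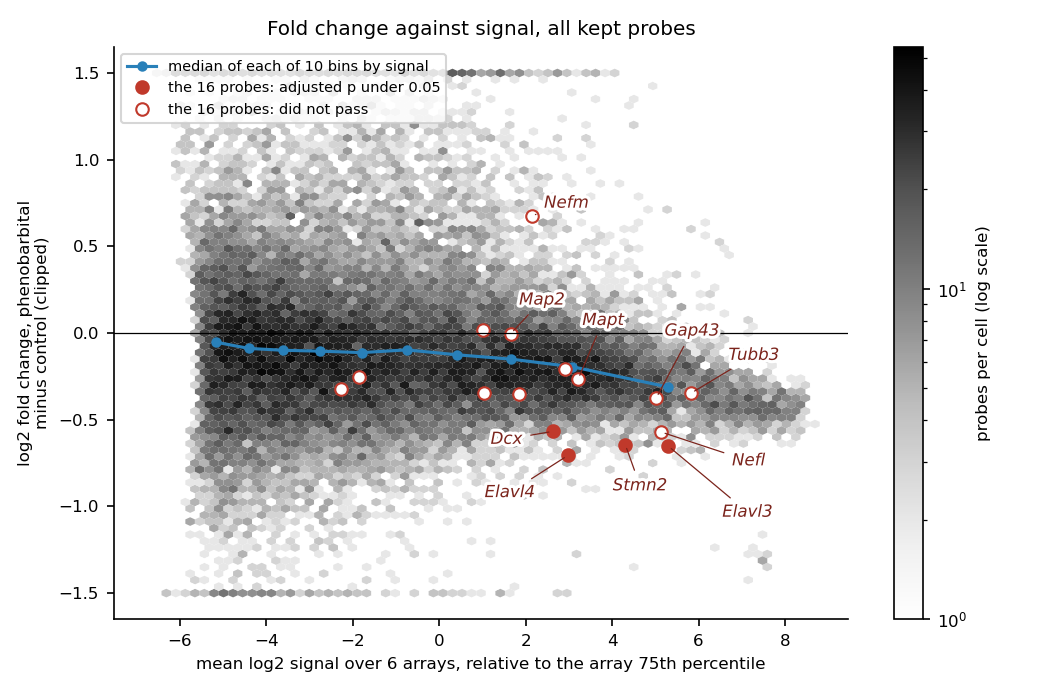
Log2 fold change against mean log2 signal for all kept probes, with grey for the number of probes, fold changes clipped at the axis limit, a line for the median of each signal bin and points for the 16 member probes, labelled at each member's brightest. The line drops to -0.31 in the brightest bin, and the brightest probes of all members lie below the median of their own bin except those of Map2 and Nefm, which lie above it.

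Some members varied within the groups in ways that others did not. Mapt shared the low values of phenobarbital 3 and control 2 with 4 of the 6 cortical neuron markers, a feature noticed after the values were seen. Neurod6, a transcription factor of postmitotic cortical excitatory neurons, stood at 2.73, 2.49 and 1.60 on phenobarbital arrays and at 3.15, 0.73 and 3.36 on control arrays. Neurod2, a related factor, stood at 4.28, 4.23 and 3.40 on phenobarbital arrays and at 4.82, 3.55 and 5.04 on control arrays. Rbfox3, which encodes the neuronal nuclear antigen NeuN, stood at 3.18, 3.13 and 2.39 on phenobarbital arrays and at 3.47, 2.45 and 3.74 on control arrays. Bcl11b, a factor of deep-layer neurons, stood at 2.69, 2.59 and 2.16 on phenobarbital arrays and at 2.83, 1.54 and 2.94 on control arrays. On all 4 markers phenobarbital 3 and control 2 were the lowest arrays of their groups, and so they were for Tubb3.

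The other 2 neuron markers did not follow that order. Tbr1, a factor of early-born layer 6 neurons and the preplate, stood at 5.86, 5.84 and 5.49 on phenobarbital arrays and at 6.29, 6.44 and 6.43 on control arrays, and fell by 0.66 ± 0.14 on the log2 scale (SE; limma adjusted p = 0.0288). A dimmer Tbr1 probe gave -0.34 and did not pass. Fezf2, a factor of subcerebral projection neurons that progenitors also hold, stood at 3.36, 3.55 and 3.45 on phenobarbital arrays and at 3.45, 3.54 and 3.33 on control arrays (log2 fold change 0.01, limma adjusted p = 0.954). Nefl and Nefm were highest within each group on these same arrays, phenobarbital 3 and control 2, where Mapt was lowest.

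Control 2 stood apart over all probes as well, with Pearson's r of 0.973 to 0.974 with phenobarbital arrays and 0.982 to 0.987 with the other control arrays, against 0.981 to 0.987 and 0.995 for controls 1 and 3. Some markers of neurons outside the cortex were high on the same arrays. Isl1, a factor of motor and sensory neurons, stood at -4.55, -4.07 and -3.31 on phenobarbital arrays and at -5.54, -2.50 and -5.39 on control arrays. It was thus highest within each group on phenobarbital 3 and control 2, as was Pou4f1, a factor of sensory neurons (-2.95, -2.86 and -2.24 against -2.43, -1.81 and -2.80). Prph and Hoxb3, the other tested genes of that list, were not. Of the 11 genes of that list 4 were tested, none passed, and 5 were above background on no array. Of 7 diencephalic and midbrain markers 3 were tested, none passed, and 4 were above background on no array. Th, the tyrosine hydroxylase of catecholamine neurons, stood at -0.03, 0.35 and 0.46 on phenobarbital arrays and at 0.67, 2.16 and 0.31 on control arrays. Lhx9 stood at -0.12, 0.10 and 0.38 on phenobarbital arrays and at 0.39, 1.24 and 0.23 on control arrays, and Tcf7l2 was likewise highest on control 2. Of 6 interneuron markers 5 were tested and none passed. These were Gad1, Gad2, Dlx2, Dlx5 and Lhx6, and all were highest within each group on phenobarbital 3 and control 2. Dlx2 stood at -2.44, -3.19 and -1.90 on phenobarbital arrays and at -2.21, -0.59 and -2.84 on control arrays. The part of other neuron types in the Nefl and Nefm values was not tested.

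**Figure D4:**
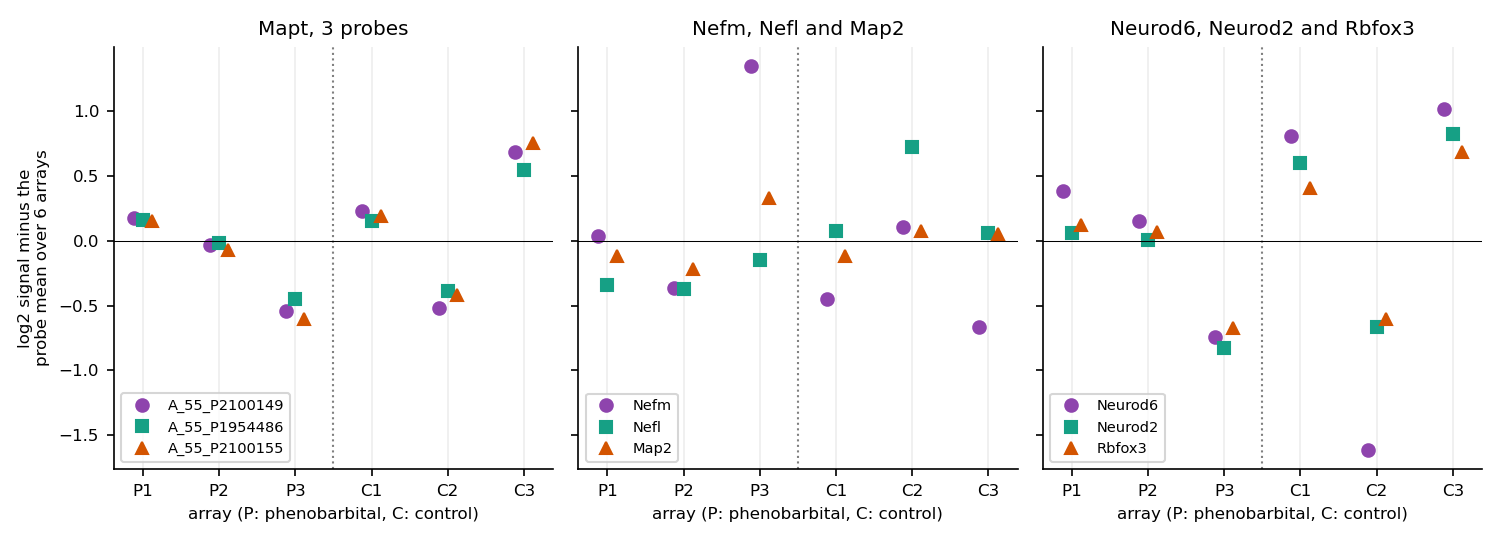
Deviation of a probe's log2 signal from its own mean over the 6 arrays, with phenobarbital arrays (P) left of control arrays (C), for the 3 Mapt probes, for Nefm, Nefl and Map2, and for the neuron markers Neurod6, Neurod2 and Rbfox3. The Mapt probes and the neuron markers dip at phenobarbital 3 and control 2, Nefm peaks at phenobarbital 3 and Nefl at control 2.

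Relatives of the members in each structure were counted from lists of other genes, 1 brightest probe each. Among 15 other tubulins and tubulin chaperones 2 fell, 3 rose and 10 did not pass, with a median log2 fold change of -0.20. The main alpha-tubulins of young neurons, Tuba1a and Tuba1b, fell, by 0.47 ± 0.12 and 0.49 ± 0.11 on the log2 scale (SE; limma adjusted p = 0.0492 and 0.0339), although a second Tuba1b probe gave 0.13. With quantile normalization their log2 fold changes were -0.02 and -0.06. The coding regions of alpha-tubulins are close to identical, so signal could be shared between them. The beta-tubulin Tubb4a rose by 1.18 ± 0.16 (limma adjusted p = 0.00879), and so did the tubulin-folding cofactors Tbcb, by 1.60 ± 0.24 (0.0128), and Tbce, by 1.18 ± 0.18 (0.0136). Tubb5, an abundant beta-tubulin, had a log2 fold change of -0.39 (limma adjusted p = 0.0597).

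Of 10 other stathmins, doublecortin relatives and collapsin response mediators, 1 fell, Dpysl2, which binds tubulin dimers in growing axons, by 0.48 ± 0.12 (limma adjusted p = 0.0461). Over that list the median was -0.14. Stmn1, the stathmin of dividing cells and progenitors, had -0.32 ± 0.14 (limma adjusted p = 0.158), with a second probe at 0.33. Of 16 other microtubule-associated and plus-end proteins 1 fell, the plus-end linker Clip2, by 0.64 ± 0.15 (limma adjusted p = 0.0366), and the median was -0.12. Map7d1, a relative of the microtubule-binding Map7, had -0.39 ± 0.11 (limma adjusted p = 0.0533). In these lists a dimmer Mapre2 probe at -0.56 passed, as did 1 of the dimmer Dclk1 probes, at -0.64 and 0.11. Of 7 other intermediate filament genes 1 fell, Vim, the vimentin of radial glia, by 0.44 ± 0.10 (limma adjusted p = 0.0376), with a median of -0.10. Vim had the opposite sign, 0.05, with quantile normalization. Nes, nestin, had -0.16 ± 0.12 (limma adjusted p = 0.366), and the neuronal filament genes Ina and Prph had -0.36 and 1.17 (limma adjusted p = 0.357 and 0.225).

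By their brightest probes, 2 of 16 other Elavl and neuronal RNA-binding genes fell and none rose. Of the 16, 15 had a negative log2 fold change, with a median of -0.33. Over all gene symbols 9.37% fell and 68.7% were negative. Of the dimmer Celf5 probes, at 0.55 and 0.64, 1 rose past the threshold, and a dimmer Rbfox1 probe fell past it, at -0.8. Elavl2, also called HuB and the third neuronal relative, stood at 1.93, 1.69 and 1.97 on phenobarbital arrays and at 2.40, 2.38 and 2.25 on control arrays. Its groups did not overlap, and it fell by 0.48 ± 0.12 on the log2 scale (SE; limma adjusted p = 0.0436), while a dimmer Elavl2 probe gave -0.33 and did not pass. Ptbp2, a splicing regulator of young neurons, stood at 2.49, 2.66 and 2.35 on phenobarbital arrays and at 2.95, 3.13 and 3.01 on control arrays, and fell by 0.53 ± 0.12 (limma adjusted p = 0.0368).

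Of 15 tested growth cone and membrane skeleton genes 3 fell and 1 rose, with a median of -0.21. Marcks and Basp1, membrane-bound substrates of protein kinase C that share the growth cone with Gap43, fell by 0.47 ± 0.11 and 0.46 ± 0.12 on the log2 scale (limma adjusted p = 0.0351 and 0.0487). Enah, an actin elongation factor of filopodia, fell by 0.45 ± 0.11 (limma adjusted p = 0.0454), while its dimmer probe gave -0.2 and did not pass. Dbnl, an actin-binding adaptor, rose by 1.17 ± 0.27 (limma adjusted p = 0.0379). Of 16 motor and dynein genes 3 fell, the kinesins Kif21a and Kif2a by 0.48 ± 0.11 and 0.52 ± 0.12 and the dynein regulator Pafah1b1, or Lis1, by 0.45 ± 0.11 (limma adjusted p = 0.0349, 0.0404 and 0.0395). In that list Kif3b rose by 0.91 ± 0.15 (limma adjusted p = 0.0154), and the median was -0.26. Dimmer probes gave -0.28 and -0.4 for Kif2a, -0.2 for Pafah1b1 and 1.07 for Kif3b, and none of them passed. For other genes of these lists, a dimmer Cttn probe at 0.69 passed, as did 1 of the dimmer Nde1 probes, at 1.6 and 0.29. Of 12 tested cytoskeletal kinases and regulators none fell by the brightest probe, and the median was -0.19. Mark2, a kinase of microtubule-associated proteins, rose by 0.61 ± 0.13 (limma adjusted p = 0.0316). Gsk3a, a kinase that phosphorylates tau, had -0.23 ± 0.10 (limma adjusted p = 0.154). A dimmer Cdk5r1 probe fell past the threshold, at -0.44, and 1 of the dimmer Gsk3b probes, at 1.24 and -0.37, passed.

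Fewer of the listed genes that fell than of those that rose passed with another scaling. Over these lists and those of synaptic, adhesion and transcription factor genes, 17 of 151 tested genes fell (11.3%) and 11 rose (7.28%), shares near the 9.37% and 7.02% of all gene symbols. With quantile normalization 2 of the 17 passed the test, 16 kept the negative sign and Vim did not, while 8 of the 11 rises passed. With median scaling 2 of the 17 and 10 of the 11 passed, and with normexp 14 of the 17 and 11 of the 11. With the slide as a block 0 of the 17 and 4 of the 11 passed, and all of them kept their sign.

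Across the 6 arrays, the mean of the members' brightest probes, each centred on its own mean, stood at -0.15, -0.25 and -0.11 on phenobarbital arrays and at 0.10, 0.19 and 0.22 on control arrays. Of 15159 other gene symbols, Smagp, Ghr, Enpp1, Bglap2 and 6430411K18Rik had the levels most like it, with Pearson's r of 0.997, 0.997, 0.997, 0.996 and 0.995. Their log2 fold changes were -0.65, -0.52, -0.33, -0.60 and -0.81. With 6 arrays in 2 groups, such values of r follow largely from a difference between the groups, and they are given as a description.

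**Figure D5:**
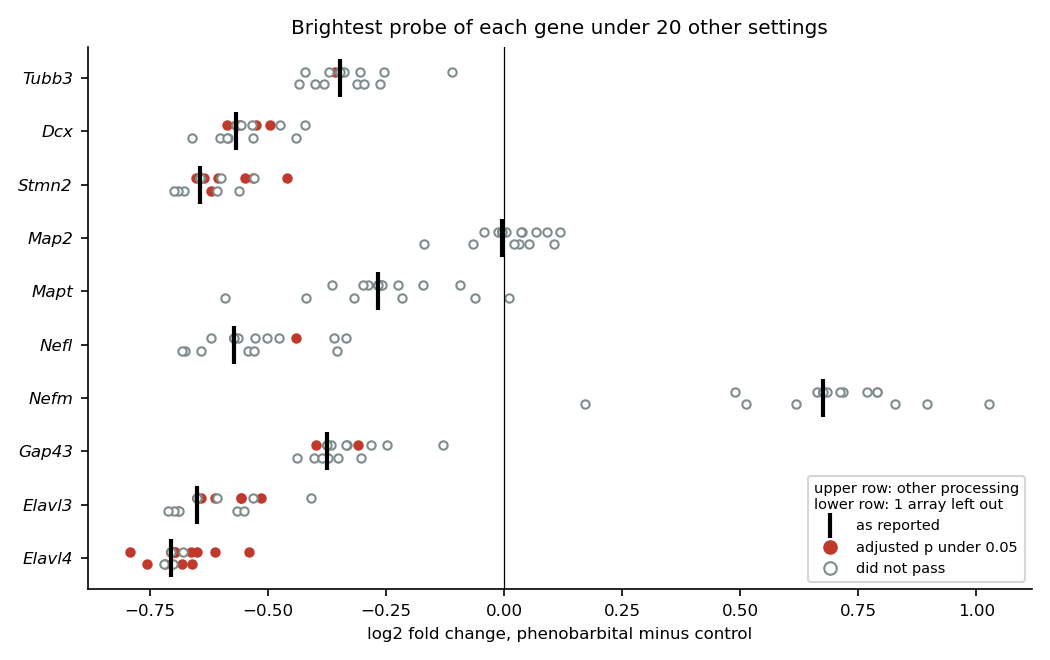
Log2 fold change of each member's brightest probe under the 20 other settings that gave a value per probe, with log2 fold change on the horizontal axis, 1 row per gene, a black tick at the reported value, and points for those settings, red where the adjusted p was under 0.05. Tubb3, Dcx, Stmn2, Elavl3, Elavl4, Gap43 and Nefl lie below 0 in all 20, Nefm lies above 0 in all 20, and Map2 and Mapt have points on both sides of 0.

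Over these 20 settings, the direction of 7 members did not change, while their calls did. Elavl4 passed the threshold in 16 of 20, Stmn2 in 11, Elavl3 in 10 and Dcx in 8. Gap43 passed in 3, and Tubb3 and Nefl in 1 each, that with array weights. Nefm was positive in all 20, between 0.17 and 1.03, and passed in 0. Map2 was negative in 10 of 20, between -0.17 and 0.12, and Mapt in 19 of 20, between -0.59 and 0.01.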

How the data were processed

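RNA of 3 phenobarbital and 3 control samples was measured on 1-colour Agilent arrays. The deposited spot signals are linear intensity values. Per the file headers, Agilent Feature Extraction 10.7.3.1 (10.7 per the submitters' processing notes) had subtracted the background and removed spatial trends, array by array, with annotation on build mm9. The authors' value table, deposited with the series, holds log2 values: its differences between arrays matched the scanner values to within 1.6e-06 for 99% of probes. Its scale and direction were settled by that comparison, and the constant on which each probe is centred is unknown. Its column medians were -0.02, -0.09 and -0.08 for phenobarbital 1 to 3 and 0.08, 0.10 and 0.09 for control 1 to 3.

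The values used were log2 of the processed signal minus the array's 75th percentile over the 59305 non-control spots of 62976. Outlier spots (98 to 198 per array) were set to missing, no spot was saturated, and spots of a probe were averaged. A probe was kept if at least 1 group had it well above background on all its arrays and both groups had 2 values or more. Of 55681 probes, 26582 were named through the RefSeq table (GRCm38.p6). Groups were compared with limma 3.58.1 in R 4.3.3 (lmFit and eBayes, no covariates, two-sided), with Benjamini-Hochberg adjustment over all kept probes and a threshold of 0.05. The fit was tested on simulated data. The number of arrays limits the precision.

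Every member probe is given. From each list of related genes, up to 4 that passed are named by smallest p, where fewer than 2 passed the brightest up to 2 in all, and further genes only to fix a count. Marker genes are named where they move with a result. Tuba1a and Vamp2 were named so, and Tubb5, Ina and Prph after their values were seen. Members and lists were chosen with earlier results of these data known. Alternatives concerned scaling and background, dim and outlier spots, the choice of probe, the variance model (prior, array weights), the authors' value table, blocks (replicate number, slide) and single arrays left out. Normexp was to use mean spot signals but used medians, since the files hold no column of means.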

Additional observations from a re-analysis of the deposited data

How the results depend on the processing

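The main count was 5617 changed probes, with 4 member probes and 4 members that fell and a member median of -0.47. Leaving out each array in turn gave 1373 to 5879 changed probes, 0 to 3 member probes and 0 to 3 members that fell, and medians of -0.51 to -0.42. Normexp gave 9201 changed probes. Median scaling gave 3639, with 2 member probes and 2 members, and quantile normalization 2 and 2, with a median of -0.23. The percentile over detected probes gave a median of -0.38, as did the mean over a gene's probes. Without the filter 1929 probes changed, 1 of them a member probe (Elavl4). Array weights gave 12225 changed probes, 7 member probes and 7 members, with a median of -0.40. With the slide as a block 1094 probes changed, 0 of the members, with a median of -0.39, and as a random block (consensus correlation 0.323) 4185 changed and 3 members fell. The replicate numbers showed no pairing in the values, since the deviations of same-numbered arrays correlated at 0.06, -0.16 and -0.33. With 3 arrays per group, these correlations cannot tell whether same-numbered samples were paired. The replicate block left 577 changed probes and 0 members. The blocks and the left-out arrays also leave fewer degrees of freedom, and other causes were not tested. Of values with no call, 10 of 20 settings gave Map2 a negative sign and 19 of 20 gave one to Mapt, as reported. No called member value changed its sign, and the other settings gave 3 to 5 members that fell. All 16 member probes were well above background on every array.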

Other observations

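Genes of vesicles, adhesion and neuronal fate, from lists of the same kind, moved in both directions. Of 16 synaptic and vesicle genes 2 fell and 3 rose, with a median log2 fold change of -0.28. Snap25, a membrane fusion protein of vesicle release, stood at 4.25, 3.90 and 4.13 on phenobarbital arrays and at 4.84, 5.30 and 4.58 on control arrays, and fell by 0.81 ± 0.21 on the log2 scale (SE; limma adjusted p = 0.0452). Scg3, a protein of dense-core granules, stood at 2.78, 2.71 and 2.63 on phenobarbital arrays and at 3.23, 3.26 and 3.58 on control arrays, and fell by 0.65 ± 0.13 (limma adjusted p = 0.0271). Stx1a, a partner of Snap25, went the other way. It stood at -0.03, 0.03 and 0.01 on phenobarbital arrays and at -0.96, -1.75 and -0.91 on control arrays, and rose by 1.21 ± 0.23 (limma adjusted p = 0.0242). The vesicle protein genes Sv2a and Vamp2 rose by 1.45 ± 0.35 and 0.63 ± 0.17 (limma adjusted p = 0.0402 and 0.0494). For Sv2a and Stx1a, control 2 was the lowest array by a wide margin.

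Of 12 neuronal adhesion genes 1 fell and 1 rose, both of the L1 family. Nrcam stood at 2.19, 2.08 and 1.96 on phenobarbital arrays and at 2.66, 3.04 and 2.84 on control arrays, and fell by 0.77 ± 0.14 (SE; limma adjusted p = 0.0196). L1cam stood at -1.93, -1.92 and -2.09 on phenobarbital arrays and at -2.99, -4.02 and -2.70 on control arrays, and rose by 1.26 ± 0.33 (limma adjusted p = 0.0493). Nrcam still passed with quantile normalization (adjusted p = 0.036), and L1cam did not (0.0746). A dimmer Ncam1 probe gave 1.13 and did pass the threshold in the main fit.

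Of 16 proneural and neuronal transcription factor genes 1 fell and 1 rose, with a median of -0.34. St18, a zinc finger factor related to Myt1, stood at -1.01, -0.62 and -0.66 on phenobarbital arrays and at -0.16, 0.37 and -0.19 on control arrays, and fell by 0.77 ± 0.20 (SE; limma adjusted p = 0.0461). Rest encodes the repressor of neuronal genes, and only the end words of its element were searched in the promoter windows. By its brighter probe Rest stood at 1.50, 1.30 and 1.97 on phenobarbital arrays and at 0.62, 0.57 and 0.34 on control arrays. That probe rose by 1.08 ± 0.19 (limma adjusted p = 0.0197), while the other Rest probe gave 0.11.

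By their brightest probes, 1 of 5 intermediate progenitor markers fell, 0 rose and 4 did not pass, with a median of -0.31. Insm1, the one that fell, stood at 4.50, 4.32 and 4.24 on phenobarbital arrays and at 5.20, 5.18 and 5.35 on control arrays, and fell by 0.89 ± 0.12 (limma adjusted p = 0.00847). Eomes and Gadd45g had -0.36 and -0.31 (limma adjusted p = 0.225 and 0.108), and Btg2 and Neurog2 had 0.01 each (0.967 and 0.977). A dimmer Eomes probe gave -0.59 and did pass the threshold.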
